A study of Arabidopsis thaliana with 21 samples.

Results

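PDF2 (PROTODERMAL FACTOR 2, AT4G04890) and ATML1 (MERISTEM LAYER 1, AT4G21750) are paralogous genes on chromosome 4 of Arabidopsis thaliana. Both encode transcription factors of class IV of the homeodomain leucine zipper (HD-Zip) proteins, the family of GLABRA2 (GL2). PDF2 and ATML1 act redundantly in the protoderm, the outermost cell layer of embryo and shoot, and plants that lack both fail to form a normal epidermis. GL2 acts later, in the differentiation of trichomes, non-hair root cells and the seed coat. Factors of this family bind DNA as dimers through the homeodomain and leucine zipper, and their START domain is a lipid-binding module.

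The members were 74 of the 10293 nuclear peaks in 6 deposited peak lists. A PDF2 member was any peak overlapping the PDF2 gene, which gave 73 peaks. An ATML1 member was any peak with its summit in ATML1 or within 1000 bp of it, which gave 1 peak, in the GL2 list. Gene spans came from a RefSeq table on TAIR10.1, used only to assign peaks to genes. Peak positions are those of the deposited lists on TAIR10.

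The lists came from chromatin immunoprecipitation and sequencing (ChIP-seq) with an anti-GFP antibody, which also recognises the enhanced yellow fluorescent protein (EYFP). Whole seedlings of the Columbia ecotype were used at 10 days of age, crosslinked with 1% formaldehyde for 10 min. There were 6 genotypes. All of them were homozygous for gl2-5, a null mutation of GL2, so every seedling lacked a working endogenous GL2. The gl2-5 mutant itself carried no EYFP fusion and served as the control for antibody background. The other 5 genotypes carried a transgene for EYFP fused to wild-type GL2 or to an altered form named gl2_dSTART, gl2_dZip, gl2_Amo or gl2_E375G R392M. By their names, gl2_dSTART and gl2_dZip concern the START domain and the leucine zipper, and the meaning of Amo is not given in the sources used here. Per the labels, the transgene for wild-type GL2 rescued the mutant and the altered forms did not. Neither the promoter of the transgenes nor the number of independent lines is given in the sources used here. In whole seedlings, fewer cells with the bound protein and less binding per cell cannot be told apart.

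Each list was made from 2 or 3 merged ChIP libraries of a genotype, called against 1 input. There are thus no replicate values, and no difference between genotypes could be set against replicate error. Intervals below are 95% intervals that cover counting error only. The merged ChIP alignments held between 4872999 (gl2-5) and 70376472 tags (gl2_Amo), where a tag is an aligned read. The caller kept 1 tag at each position, which left between 227071 (gl2-5) and 1248287 tags (gl2_dZip). That is 0.765% (gl2_Amo) to 4.66% (gl2-5) of the ChIP tags. A tag count is therefore a count of different positions, and at a densely covered place it cannot rise in proportion to the reads.

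PDF2 held a dense cluster of peaks in every list, with the fusion and without it. The control gl2-5 had 10 PDF2 peaks, and the fusions had 11 (gl2_dZip), 12 (gl2_E375G R392M), 13 (GL2 and gl2_dSTART) and 14 (gl2_Amo). The cluster ran from 2476461 to 2482325 on chromosome 4, a span of 5865 bp. In each list PDF2 had more peaks than any other protein-coding gene. Genes with 5 or more peaks made up 0.00729% of 27432 protein-coding genes in the GL2, gl2_dZip, gl2_E375G R392M and gl2-5 lists, which in each was PDF2 and GL2. The share was 0.0109% for gl2_dSTART and 0.0182% for gl2_Amo. By summed tags PDF2 ranked 1st among these genes for gl2_dZip, 6th for gl2-5, 7th for gl2_dSTART and gl2_E375G R392M, and 8th for GL2 and gl2_Amo.

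The peaks fell into 9 segments, numbered here along the chromosome, that were separated by gaps present in all 6 lists. A segment is the union of overlapping or adjoining peaks over the lists. Every list had at least 1 peak in each of the 9 segments. Segment 1 reached from 2476461 to 2476898, segment 2 from 2476946 to 2477419 and segment 3 from 2477436 to 2477589. Segment 4 reached from 2477619 to 2477966, segment 5 from 2478042 to 2478556 and segment 6 from 2478600 to 2479274. Segment 7 reached from 2479322 to 2479555, segment 8 from 2479629 to 2480275 and segment 9 from 2482030 to 2482325.

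Gaps between the segments were short except for the last. The first 7 shared gaps were 47, 16, 29, 75, 43, 47 and 73 bp wide. The eighth, between segments 8 and 9, was 1754 bp wide and reached from 2480276 to 2482029. No list had a peak in it. It made up most of the 2084 bp of the span that no list covered. Peaks of all 6 lists covered another 2221 bp, and those of 5 lists 801 bp. Whether the gaps coincide with introns was not tested, since exon positions were not used here.

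**Figure D1:**
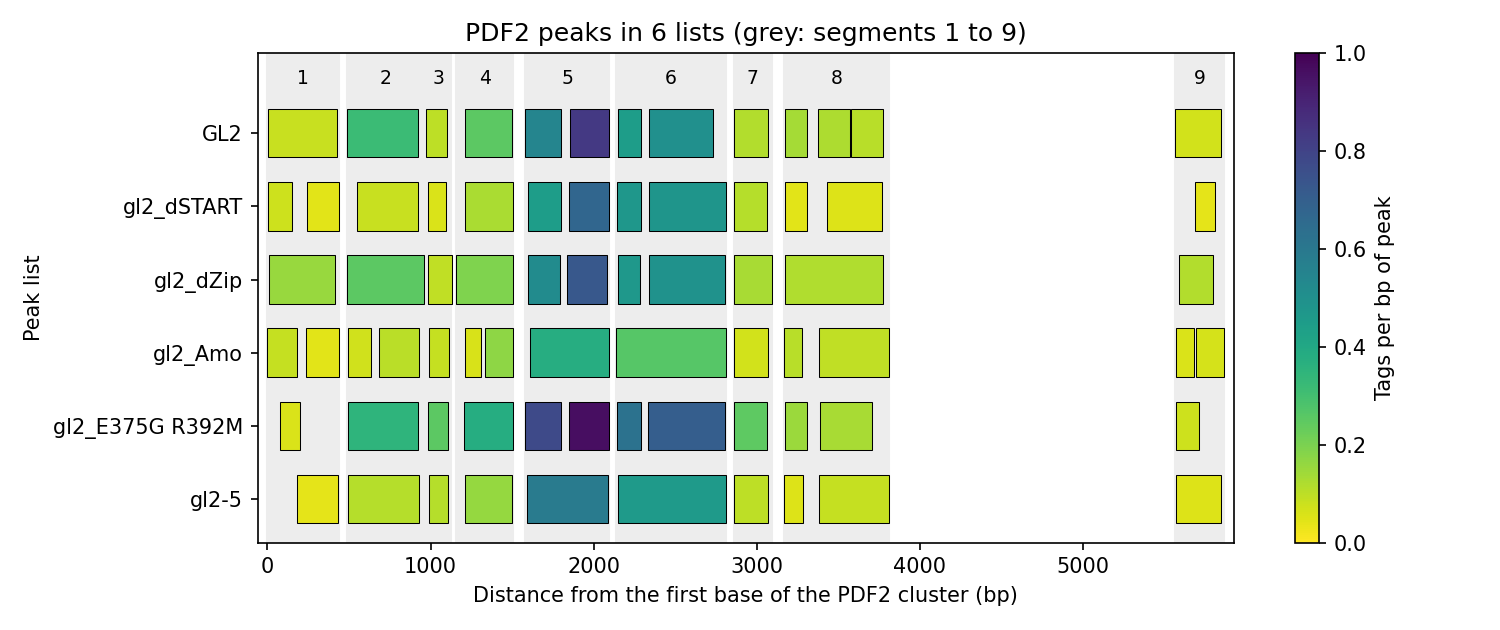
PDF2 peaks of the 6 lists as boxes, by distance in bp from the first base of the cluster, with colour giving the tags per bp of each peak and grey bands the 9 segments. All lists had peaks in every segment, the 1754 bp gap before segment 9 was empty in all, and segments 5 and 6 held the most tags per bp in each list.

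The lists differed most at the ends of the cluster. In segment 1, no base was covered in all 6 lists. The gl2_E375G R392M list had a peak from 2476536 to 2476660 with 7 tags there, and the gl2-5 list one from 2476645 to 2476894 with 10 tags. The gl2_dSTART and gl2_Amo lists each had a pair of peaks in segment 1, whereas GL2 had 1 peak from 2476462 to 2476884 with 36 tags. In segment 9, only 21 bp were common to all lists. Peaks there rested on 5 tags for gl2_dSTART, 11 for gl2_E375G R392M, 14 for gl2-5, 17 for gl2_Amo in a pair of peaks, 19 for GL2 and 24 for gl2_dZip.

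In the centre of the cluster most edges lay close together, but the lists differed in how the signal was divided. Segment 5 began within 28 bp and ended within 12 bp of the same place in the 6 lists, and segment 6 began within 11 bp. The end of segment 6 spread over 83 bp, since the GL2 list ended at 2479191 and the others between 2479266 and 2479274. The gl2-5 and gl2_Amo lists had 1 peak in each of these segments. GL2, gl2_dSTART, gl2_dZip and gl2_E375G R392M had a pair in each. The break in segment 5 was between 45 and 56 bp wide, and 2478260 to 2478297 was uncovered in those 4 lists. The break in segment 6 was between 46 and 53 bp wide, and 2478755 to 2478796 was uncovered in the same lists. The lists with a continuous peak thus included the control and 1 fusion, and they had the lowest (gl2-5) and the highest (gl2_Amo) number of ChIP tags. The part of depth in this was not tested.

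Nearly every PDF2 peak of a fusion overlapped a peak of the control. All 13 PDF2 peaks of the GL2 list overlapped a gl2-5 peak by at least 1 bp, where 29.5% of all nuclear GL2 peaks did. So did 12 of 12 for gl2_E375G R392M (22.7% of its whole list), 11 of 11 for gl2_dZip (7.47%), 12 of 13 for gl2_dSTART (8.70%) and 13 of 14 for gl2_Amo (8.55%). The exceptions were the first peaks of gl2_dSTART (2476467 to 2476613, 11 tags) and gl2_Amo (2476461 to 2476639, 16 tags), both in segment 1. In the other direction, all 10 gl2-5 peaks of PDF2 overlapped a peak of each fusion list. The same held for 43.2% of all gl2-5 peaks with the GL2 list, 44.3% with gl2_Amo, 42.9% with gl2_E375G R392M, 32.0% with gl2_dSTART and 13.7% with gl2_dZip. Peaks in 1 cluster are neighbours and not independent of each other. The gl2-5 peaks covered 57.7% of their PDF2 span, so a peak in the cluster can easily overlap one by 1 bp. The shares over whole lists are therefore no like baseline for these counts.

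The edges of PDF2 peaks matched those of the control no more closely than elsewhere. Starts and ends within 10 bp of a start or end of the overlapping gl2-5 peak were 14 of 26 for GL2, where all overlapping peaks of that list gave 65.9%. The counts were 15 of 24 for gl2_E375G R392M (70.6% over the list), 16 of 26 for gl2_Amo (64.6%), 12 of 24 for gl2_dSTART (64.0%) and 9 of 22 for gl2_dZip (43.1%). As shares of the PDF2 edges they ran from 40.9% (gl2_dZip) to 62.5% (gl2_E375G R392M), and each was below the share over its list. The PDF2 edges include inner edges at breaks where gl2-5 had 1 continuous peak. Such breaks lay in segments 5 and 6 in all fusion lists but gl2_Amo, and in segments 1, 2, 4 and 9 in gl2_Amo. They also lay in segment 1 in gl2_dSTART and in segment 8 in GL2 (2480033 to 2480036). Those in segment 1 began before the start of the gl2-5 peak. The part of all these breaks in the lower shares was not tested. Some edges still recurred in all lists, such as the starts of segments 7 (2479322 to 2479325) and 8 (2479629 to 2479636) and the end of segment 4 (2477961 to 2477966).

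Summits varied more than the outer edges of the lists in most segments. An outer edge is the first start or the last end of a list's peaks in a segment. With the peak of most tags taken for each list, the spread of the 6 summits exceeded that of both outer edges in 8 of the 9 segments. It was 264, 213, 183, 121, 117, 68, 293 and 157 bp in segments 1, 2, 4, 5, 6, 7, 8 and 9. The exception was segment 3, where the summits lay within 18 bp of each other and the ends within 36 bp. Against the own edges of the peaks with most tags, the summit spread also did not exceed both in segments 1, 5 and 6. Those peaks ended between 2476613 (gl2_dSTART) and 2476894 (gl2-5) in segment 1. They started between 2478053 (gl2-5) and 2478315 (GL2) in segment 5, and between 2478600 (gl2_Amo) and 2478802 (GL2) in segment 6. In segment 5 the summit lay at 2478375 for both gl2-5 and gl2_Amo, at 2478367 for gl2_E375G R392M, at 2478455 for gl2_dSTART, at 2478483 for GL2 and at 2478488 for gl2_dZip. With summits required to lie within 50 bp of a gl2-5 summit, in place of overlap, 8 PDF2 peaks each were shared for gl2_Amo and gl2_E375G R392M, 5 each for GL2 and gl2_dSTART, and 4 for gl2_dZip. The share of all nuclear peaks that meet this rule was not computed, so these counts cannot be called high or low for their lists.

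Scaled to retained tags, the PDF2 signal was not lower without the fusion. Summed over PDF2, the peaks held 793 tags in gl2-5. They held 1248 in gl2_E375G R392M, 968 in gl2_dZip, 947 in GL2, 695 in gl2_dSTART and 554 in gl2_Amo. Scaled to 100000 retained ChIP tags, this gave 268 for GL2 (252 to 286) and 349 for gl2-5 (325 to 374). The value for gl2_E375G R392M was 335 (316 to 354), next to the control, and that for gl2_dSTART was 233 (216 to 252). The lowest values were 103 for gl2_Amo (94.5 to 112) and 77.5 for gl2_dZip (72.7 to 82.6), the lists with the most retained tags.

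As a ratio to the control, the scaled PDF2 tags were 0.769 in GL2 (0.699 to 0.846), 0.669 in gl2_dSTART (0.603 to 0.741), 0.294 in gl2_Amo (0.264 to 0.329) and 0.222 in gl2_dZip (0.202 to 0.244). For gl2_E375G R392M the ratio was 0.958 (0.876 to 1.05), an interval that includes equality. These intervals compare the merged libraries and not the genotypes. With all ChIP tags of the alignment as the base, gl2-5 had 1627 PDF2 tags per 10000000, and the fusions between 78.7 (gl2_Amo) and 482 (GL2). The control was thus highest on both scales, but its margin over the fusions depended on the scale. The second scale divides tags limited to 1 per position by all reads, which were fewest in gl2-5 (4872999, against 19652687 or more in the fusions). It therefore favours the list with the fewest reads, and the rank of the control on it is no separate result. The first scale can share this limit, since its PDF2 tags are also held to 1 per position. On it too gl2-5 had the smallest base, with 227071 retained tags against 297665 or more in the fusions. The part of this in the rank of the control and in the ratios was not tested.

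**Figure D2:**
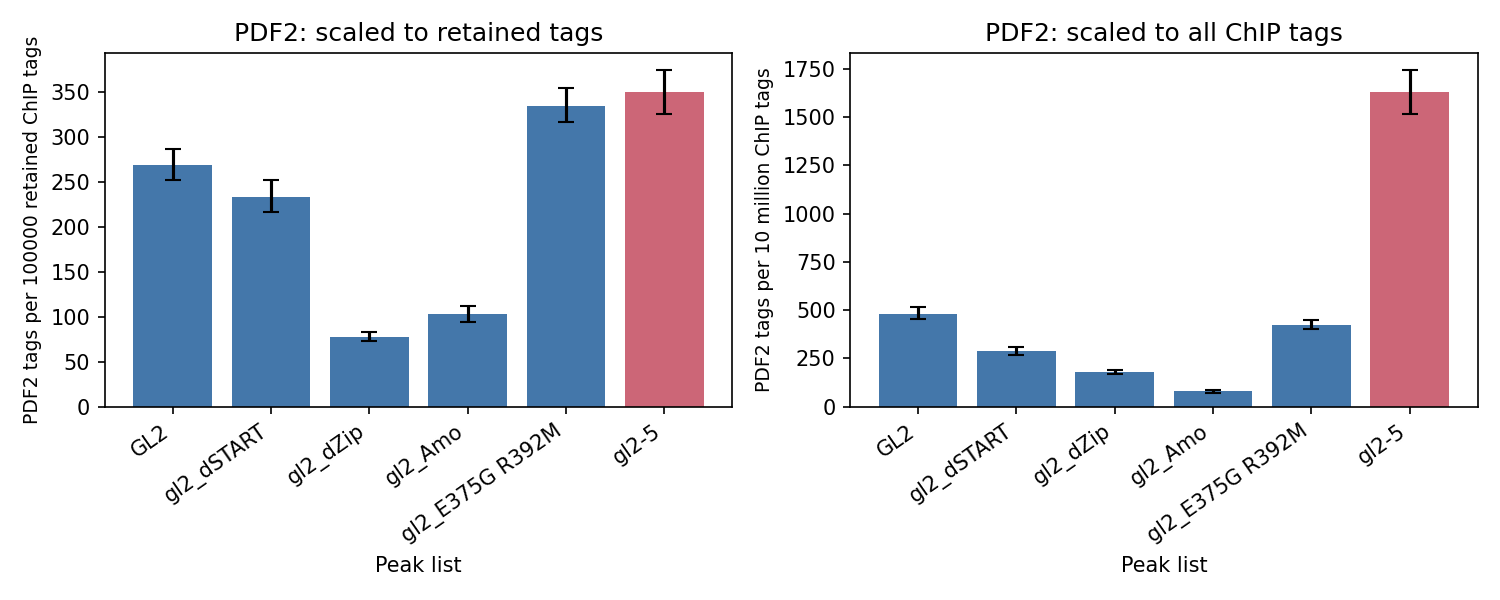
PDF2 tags of each list per 100000 ChIP tags kept by the caller (left) and per 10000000 ChIP tags of the alignment (right), with 95% exact Poisson intervals, fusions in blue and gl2-5 in red. The control was highest in both panels, at 349 and 1627, and gl2_E375G R392M came close to it on the left scale only, at 335. The control also had the fewest ChIP tags as the base in both panels.

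How full the positions were also differed. If tags on the 2 strands count as different positions, as is usual for this caller, PDF2 peaks used 12.1% of their start positions in gl2-5. The share was 21.9% in gl2_E375G R392M, 14.4% in GL2, 14.0% in gl2_dZip, 11.7% in gl2_dSTART and 8.28% in gl2_Amo. In the fullest peak of each list the share was 48.1% for gl2_E375G R392M, 41.7% for GL2, 36.4% for gl2_dZip, 33.7% for gl2_dSTART, 29.4% for gl2-5 and 18.9% for gl2_Amo. The gl2_Amo list, with the most reads, thus had the emptiest PDF2 peaks.

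Segments 5 and 6 together held most PDF2 tags in each list. They had 581 of the 947 tags for GL2, or 61.4% (58.2 to 64.4), and 59.8% (56.7 to 62.9) for gl2_dZip. In gl2_E375G R392M the share was 65.8% (63.1 to 68.4), and in gl2_Amo 65.5% (61.5 to 69.4). It was highest in gl2_dSTART at 79.1% (76.0 to 82.0) and in gl2-5 at 75.3% (72.2 to 78.2). The intervals of gl2_dSTART and gl2-5 overlapped each other and none of the other 4.

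Outside the centre, the lists differed in segment 2. It held 139 tags for GL2, 118 for gl2_dZip and 151 for gl2_E375G R392M, but 31 for gl2_dSTART, 35 for gl2_Amo and 49 for gl2-5. As a share of a list's PDF2 tags this was 14.7% for GL2, 12.2% for gl2_dZip and 12.1% for gl2_E375G R392M, against 4.46% for gl2_dSTART, 6.32% for gl2_Amo and 6.18% for gl2-5. By share, the control thus lay with gl2_dSTART and gl2_Amo, and wild-type GL2 with gl2_dZip and gl2_E375G R392M. This grouping did not hold for tags scaled to depth. Scaled to 100000 retained tags, segment 2 held 39.4 tags (33.1 to 46.5) in GL2 and 40.5 (34.3 to 47.5) in gl2_E375G R392M, above the 21.6 (16 to 28.5) of gl2-5. For gl2_dZip it held 9.45 (7.82 to 11.3). It held 10.4 (7.08 to 14.8) in gl2_dSTART and 6.50 (4.53 to 9.04) in gl2_Amo, so that these 3 fusions lay below the control. Segment 2 was singled out after its values were seen.

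Segments 3, 4, 7 and 8 carried fewer tags than segments 5 and 6 in every list. Segment 3 held between 6 (gl2_dSTART) and 30 tags (gl2_E375G R392M), and segment 7 between 14 (gl2_Amo) and 50 (gl2_E375G R392M). Segment 4 held 46 tags in gl2-5, 114 in gl2_E375G R392M, 72 in GL2, 67 in gl2_dZip, 37 in gl2_dSTART and 35 in gl2_Amo. Per 100000 retained tags, segment 4 held 20.3 in gl2-5 (14.8 to 27.0) and 20.4 in GL2, within that interval. The other fusions lay outside it, at 30.6 in gl2_E375G R392M, 12.4 in gl2_dSTART, 6.50 in gl2_Amo and 5.37 in gl2_dZip. The intervals of gl2_E375G R392M (25.2 to 36.7) and gl2_dSTART (8.75 to 17.1) still overlapped that of the control. Segment 8 held 63 tags in 3 peaks for GL2, 73 in 1 peak for gl2_dZip and between 24 (gl2_dSTART) and 64 (gl2_E375G R392M) in the other lists, which had a pair of peaks each.

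Across the 9 segments, the tags per bp of peak followed a like order in all lists. Spearman's rho between gl2-5 and a fusion was 0.98 for gl2_E375G R392M, 0.87 for gl2_Amo, 0.83 for GL2, 0.80 for gl2_dSTART and 0.62 for gl2_dZip. Over all 15 pairs of lists it ran from 0.62 to 0.98. The points are neighbouring segments of 1 gene, so these values are a description.

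**Figure D3:**
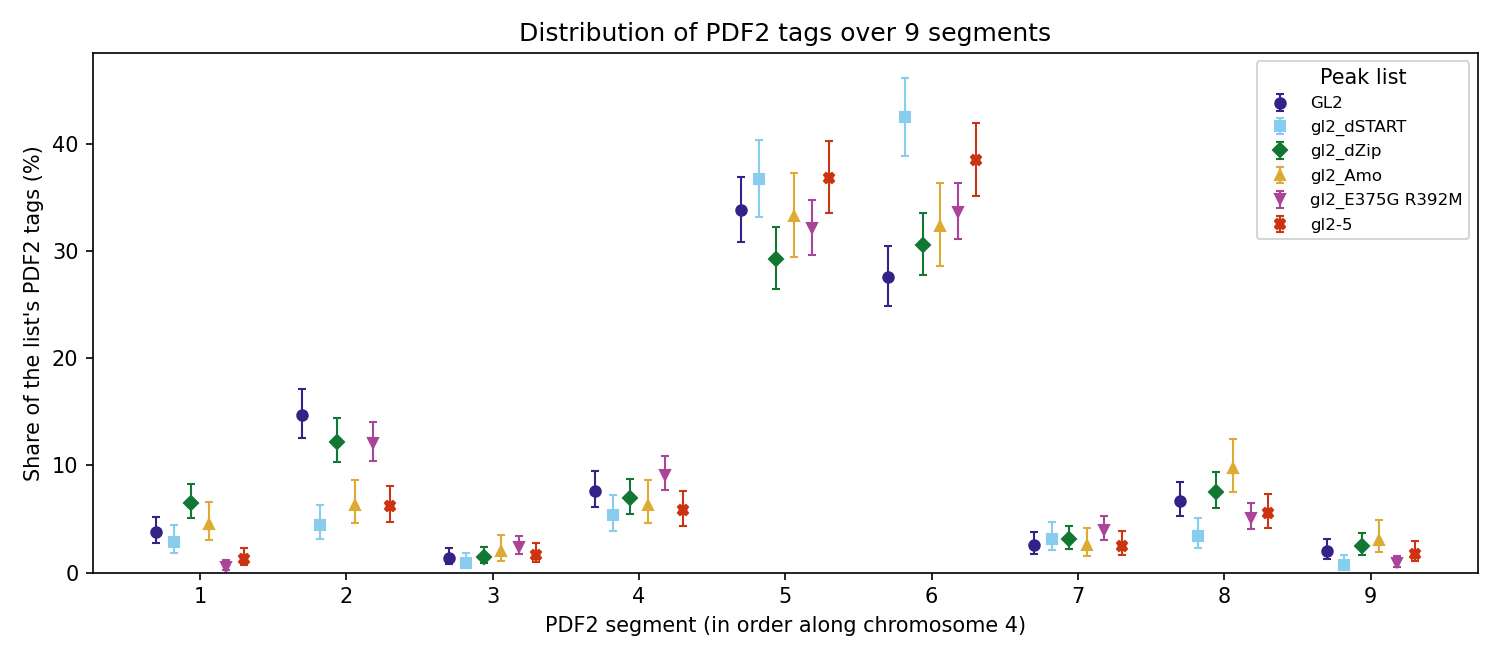
Share (%) of each list's PDF2 tags in segments 1 to 9, with 95% Wilson intervals. Segments 5 and 6 held the largest shares in all lists, and in segment 2 GL2, gl2_dZip and gl2_E375G R392M (12.1% to 14.7%) lay above gl2_dSTART, gl2_Amo and gl2-5 (4.46% to 6.32%). Segment 2 was singled out after its values were seen. Its grouping did not hold for tags scaled to depth, where gl2_dZip lay below gl2-5.

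Within its list, PDF2 stood at or near the top by fold enrichment, the authors' ratio of the ChIP signal of a peak to a local background. The fold does not follow the summed tags of a peak alone. The highest fold of the whole list was a PDF2 peak for 5 lists, at 669 in gl2-5, 503 in GL2, 479 in gl2_dSTART, 456 in gl2_E375G R392M and 147 in gl2_dZip. In gl2_Amo the highest PDF2 fold, 199, came second to a peak in the gene CML11 (fold 207). These highest PDF2 peaks lay in segment 5, except that of gl2_dZip, which lay in segment 6. Among the 10 highest folds of a list, PDF2 peaks were 6 each in gl2_dZip and gl2_E375G R392M, 5 in GL2, 4 each in gl2_dSTART and gl2-5, and 2 in gl2_Amo.

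Not every PDF2 peak was high. Folds within the cluster ran from 42.5 to 669 in gl2-5 and from 49.6 to 503 in GL2. They ran from 13.0 to 479 in gl2_dSTART, 19.6 to 456 in gl2_E375G R392M, 21.6 to 199 in gl2_Amo and 20.2 to 147 in gl2_dZip. The fewest tags of a PDF2 peak were 5 in gl2_dSTART, 6 in gl2_Amo and gl2-5, 7 in gl2_E375G R392M, 13 in GL2 and 14 in gl2_dZip. All PDF2 peaks of GL2, gl2_dZip, gl2_Amo and gl2-5 exceeded the median fold of their list, as did 11 of 13 for gl2_dSTART and 11 of 12 for gl2_E375G R392M.

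**Figure D4:**
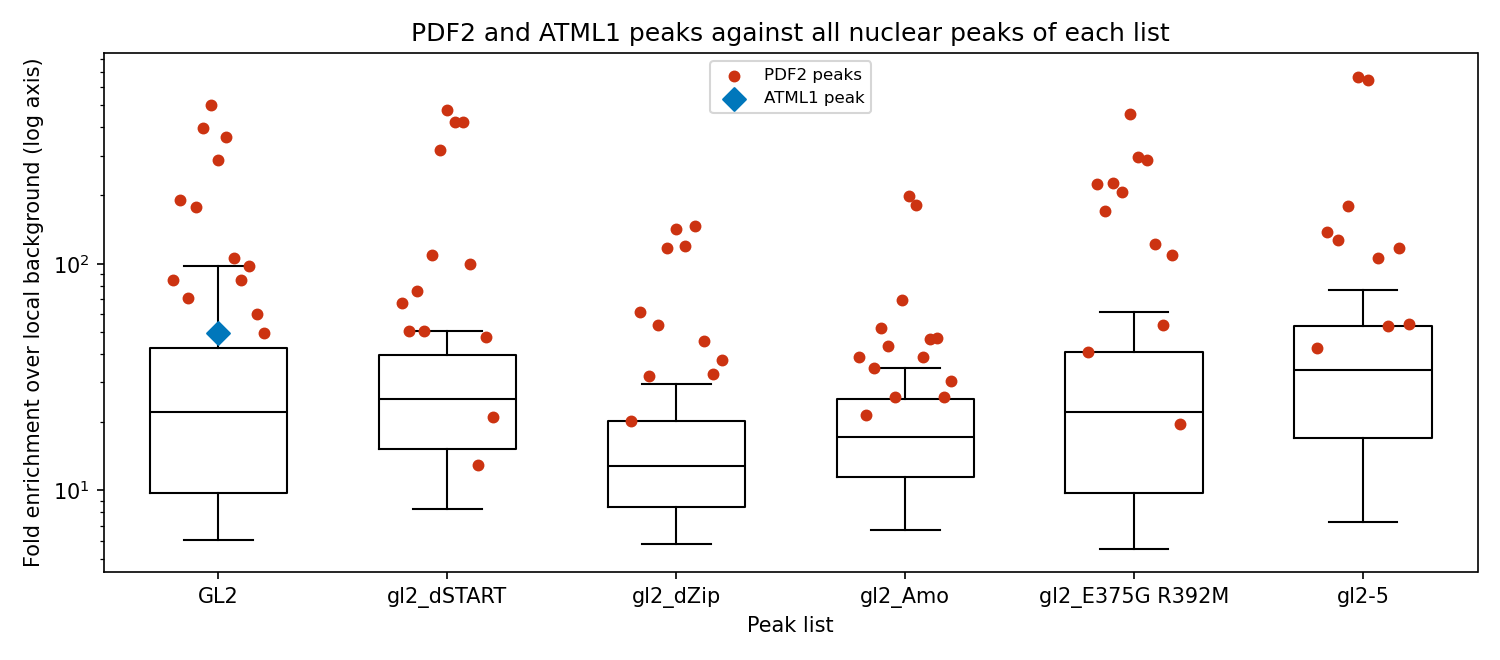
Fold enrichment (log axis) of the PDF2 peaks (red) and the ATML1 peak (blue) over all nuclear peaks of each list, shown as boxes from the lower to the upper quartile with the median and whiskers from the 5th to the 95th percentile. The top PDF2 peak is at 669 in gl2-5 and 503 in GL2, and the ATML1 peak, in the GL2 list alone, is at 49.6.

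The false discovery rate (FDR) that the caller obtained by exchanging ChIP and input was mostly above 5% in gl2_dZip and gl2-5, over the whole lists as at PDF2. All 13 PDF2 peaks of GL2 had an FDR of 5% or less, where 42.8% of the list did. The same held for all 13 of gl2_dSTART (100% of its list), all 14 of gl2_Amo (99.6%) and all 12 of gl2_E375G R392M (68.0%). In gl2_dZip 2 of 11 did, and these were the only such peaks in the whole list (0.159%). They reached from 2478298 to 2478544 (180 tags) and from 2478799 to 2479268 (233 tags). In gl2-5 2 of 10 did (2.79% of its list), namely 2478053 to 2478548 and 2478611 to 2479272, which were also the peaks with the most tags of the cluster, at 292 and 305. The other PDF2 peaks had FDRs up to 16.4% for gl2-5 and 100% for gl2_dZip. FDRs depend on the depth of ChIP and input and need not be comparable between lists.

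The cluster stopped at the gene. To the left, the nearest peak of any list was 41143 bp away, in gl2-5. To the right, gl2_Amo had a peak 3159 bp from its last PDF2 peak (2485485 to 2485556, 6 tags, fold 23.4). The gl2_dSTART list had one 6140 bp away, in RIC10 (2488415 to 2488529, 6 tags, fold 36.3). In the other 4 lists the next peak to the right was at least 95774 bp away. These peaks lie outside the rule for members.

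ATML1, the closest relative of PDF2, had no such cluster. Its single peak was in the GL2 list and reached from 11558947 to 11559095 on chromosome 4, within the gene, with its summit at 11559044. It held 11 tags, with a fold of 49.6, a score of 131 (the caller's p-value on a negative log10 scale, times 10) and an FDR of 2.31%. PDF2 held 86.1 times as many tags in the same list, and none of its 13 peaks had fewer tags or a lower fold than the ATML1 peak. The lowest PDF2 values were close to those of the ATML1 peak. The lowest PDF2 fold was 49.62 against 49.59 at ATML1, and the fewest tags were 13 against 11. Among the 1001 nuclear GL2 peaks, the ATML1 peak ranked 259th by score, 471st by tags and 157th by fold. It was thus an ordinary member of its list by tags.

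Neither the control nor any altered form had a peak at ATML1. The nearest peak outside the 1000 bp limit was 4668 bp from the gene in gl2_dSTART (11565407 to 11565471, 5 tags, fold 42.0). In the remaining lists it lay between 42775 bp (gl2_E375G R392M) and 171640 bp (GL2) away. In the GL2 list the 11 tags amounted to 3.12 per 100000 retained tags (1.56 to 5.58). The fewest tags of any peak in a list were between 5 (gl2_dSTART and gl2-5) and 8 (gl2_dZip). Tags at places without a peak are not in the files, so a missing peak means only that the call did not pass there. The absence from the other 5 lists was not shown to be a difference from GL2.

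PDF2 and ATML1 are similar in sequence, and how reads that align to more than 1 place were treated is not given in the sources used here. Tags at both genes are therefore uncertain to the extent that reads could be assigned to either.

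Among the 16 class IV HD-Zip genes, only PDF2 and GL2 had peaks in all 6 lists. The top peak at the GL2 gene had an FDR of 60% in gl2_dZip (105 tags) and 6.67% in gl2-5 (39 tags). In the other lists it had one of 1.54% or less. At the GL2 gene, whose sequence the transgenes carry at least in part, the summed tags were 127 in gl2-5, 416 each in gl2_dZip and gl2_E375G R392M, 180 in GL2, 152 in gl2_Amo and 98 in gl2_dSTART. Per 100000 retained tags they were 55.9 in gl2-5, 112 in gl2_E375G R392M, 51.0 in GL2, 33.3 in gl2_dZip, 32.9 in gl2_dSTART and 28.2 in gl2_Amo, which put the control second. PDF2 held between 2.33 (gl2_dZip) and 7.09 times (gl2_dSTART) as many tags as GL2 in the same list. Counting summits in a gene or within 1000 bp, 3 of the 16 genes had a peak in the GL2 list (PDF2, GL2 and ATML1), where 2.49% of all protein-coding genes did. There were 3 in gl2_dSTART (4.71% of all genes) and in gl2_E375G R392M (3.06%), and 2 each in gl2-5 (2.14%), gl2_dZip (1.32%) and gl2_Amo (6.63%). PDF2 and ATML1 were chosen with these peaks known, so the counts are not independent of that choice.

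Beyond PDF2, GL2 and ATML1, the family had single peaks in single lists. HDG2, which promotes trichome and stomatal development, had one in gl2_dSTART (chromosome 1, 1513637 to 1513779, 5 tags, fold 25.2). FWA, an imprinted gene that delays flowering when expressed outside the seed, had one 160 bp from the gene in gl2_E375G R392M (chromosome 4, 13038153 to 13038246, 7 tags, fold 47.8). The other 11 members, ANL2, HDG1, HDG3 to HDG5 and HDG7 to HDG12, had none in any list.

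Of 15 genes of protoderm identity and the cuticle, 3 had a peak in any list. The share of all protein-coding genes with a peak in any list was not computed. The count was 0 in GL2 (where 2.49% of all protein-coding genes had a peak), gl2_dZip (1.32%) and gl2_E375G R392M (3.06%). It was 1 in gl2_dSTART (4.71%), 1 in gl2-5 (2.14%) and 2 in gl2_Amo (6.63%). With 15 genes, such counts are close to those background shares and are no result about the list. PDF1, a protoderm gene whose expression depends on ATML1 and PDF2, had no peak. ACR4, a receptor kinase of the epidermis, had a peak in gl2_Amo (chromosome 3, 21961663 to 21961797, 6 tags, fold 13.0) and in gl2-5 at the same place (21961663 to 21961793, 5 tags, fold 42.5). DEK1, a calpain required for epidermal cell fate, had a pair in gl2_dSTART with 5 tags each (chromosome 1, 20658312 to 20658412, fold 42.0, and 20658951 to 20659070, fold 30.3). GSO2, a receptor kinase of embryonic cuticle formation, had one in gl2_Amo (chromosome 5, 18034951 to 18035090, 6 tags, fold 17.3). ALE1, ALE2, FDH, BDG1, LGO, GSO1, TWS1, ABCG11, ABCG12, LACS2 and DCR had none. With 5 or 6 tags, the peaks at these genes lay at the lower limit of calling.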

How the data were processed

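For every genotype there was 1 list of peaks from the authors. The caller was MACS 1.4.2, run on merged ChIP alignments against 1 input per the file headers, at a p cutoff of 1e-05 and at most 1 tag per position. The fitted fragment size was 52 to 58 bp at a tag length of 51 bp, whereas the labels give a library size of 320 bp. The effect of this on the PDF2 gaps was not tested. Bowtie2 2.2.3, bcl2fastq, the TAIR10 build and MACS2 1.4.2 are named in the submitters' processing notes. Per the file headers, each deposited peak has an unscaled tag count, an FDR in percent, a fold enrichment (ratio to the local background) and a score. These are the authors' values for single peaks.

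From the lists, PDF2 and ATML1 peaks were selected by overlap or summit (start plus the deposited offset), using Python 3.11.15 and pandas 2.3.3. Peaks outside the 5 nuclear chromosomes were left out. Tags were summed and scaled to the ChIP tags in the headers, with exact Poisson intervals. Shares have Wilson intervals, and ratios exact binomial intervals (scipy 1.17.1). Lists were taken as sharing a peak at an overlap of 1 bp. All 31 loci of the gene lists matched the RefSeq table on TAIR10.1, whose nuclear coordinates were taken to match TAIR10. No genome sequence or exon annotation was used here. Interval steps were tested on simulated data. The members and gene lists were chosen with earlier results of these data known. Genes were named when they were members, belonged to the lists, or lay at a peak that the text needed to place. Alternatives were stricter scores and FDRs, other overlap rules, other scaling and other windows.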

Additional observations from a re-analysis of the deposited data

How the results depend on the processing

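The counts of PDF2 peaks stayed within 1.5 times the reported value with a score of 100 or more and with summits required in the gene. With an FDR of 5% or less they fell to 2 for gl2_dZip and 2 for gl2-5, since the other peaks of these lists have higher FDRs. Peaks shared with gl2-5 stayed within that range with an overlap of 50% of the shorter peak and with scores of 100 or more. With summits within 50 bp they numbered 8 in gl2_Amo, 5 each in GL2 and gl2_dSTART and 4 in gl2_dZip, by a rule that demands more than overlap. No share over the whole lists was computed for that rule. Per 10000000 ChIP tags, PDF2 tags were 1627 in gl2-5, 482 in GL2, 425 in gl2_E375G R392M, 289 in gl2_dSTART, 178 in gl2_dZip and 78.7 in gl2_Amo, a different unit from the tags per 100000 retained tags. The bases covered in all lists were 1900 with scores of 100 or more and 2237 without gl2_dZip, against 2221. ATML1 counts were the same with windows of 500 and 2000 bp and with an FDR of 5% or less. No paired analysis was possible because the lists merge the replicates of a genotype, and for the same reason no replicate could be left out. Depth limits the segments with few tags and what a missing ATML1 peak can show.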
